A study of Drosophila melanogaster with 3 samples.

Results

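The 35 genes described here encode cytoskeletal motors of Drosophila melanogaster, and the readout is where the DNA-binding protein crp (cropped) sat relative to them in embryos. They were chosen by family and role out of 13968 protein-coding genes, not by any measured value, but with earlier results of these data known. The set holds 13 mitotic kinesins, 7 transport kinesins, 3 other kinesins, 4 subunits of cytoplasmic dynein and 8 myosins. All samples came from 1 transgenic fly line that stably expressed crp carrying GFP at its C terminus. Whole embryos of both sexes, aged 0 to 24 h and pooled, were used, their chromatin was sonicated into fragments of 200 to 800 bp, and bound DNA was recovered with an antibody to GFP and sequenced (ChIP-seq). The 3 biological replicates formed a single group, so no treatment or genotype was compared, and a control library was not analysed here. Because stages and tissues were mixed, strong binding in a few cells and weak binding in many cannot be told apart.

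Kinesins and dyneins walk along microtubules, kinesins mostly towards the plus end and dynein towards the minus end, while myosins walk along actin filaments. Some kinesins build and pull apart the mitotic or meiotic spindle, and others carry vesicles, organelles and RNA through cells such as neurons. crp belongs to the AP-4 family of basic helix-loop-helix proteins, which bind as dimers to the E-box CAGCTG, a palindrome that reads alike on both strands.

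crp binding was found at the start sites of 17 of the 35 motor genes (48.6%, 95% Wilson interval 33.0 to 64.4%), against 33.3% of all protein-coding genes (4657 of 13968). A gene was counted when a summit, the position of highest signal in a peak, lay within 500 bp of any of its annotated start sites. The peaks were the authors' list of 5460 that passed their irreproducible discovery rate (IDR) filter, a measure of how well peak ranks recur. The median signal of this list equalled that of the 5460 strongest pooled peaks, 367. Each bound motor gene's strongest promoter summit held the same rank in this list as in the pooled list. The ranks of these summits thus followed pooled signal. How far entry to the list also went with recurrence in each replicate was not tested. The 5460 strongest peaks of replicates 1, 2 and 3 gave 18, 19 and 20 motor genes, or 54.3% ± 2.86 (SD, n = 3). The same count over all protein-coding genes gave 30.3% in replicate 1, 31.7% in replicate 2 and 32.1% in replicate 3. The motor share lay above the share of all genes in every replicate, by more than the spread between replicates. The interval of the IDR share, which reflects the small number of motor genes, includes the share of all genes. The IDR list was made from these samples, so the counts are not independent of each other, and no test was run because the genes were chosen with earlier results known. Intervals of shares cover counting error only.

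Motor genes were longer and had more start sites than the average gene. Their median length was 7757 bp, against 2164.5 bp for all protein-coding genes, and they had 1.80 start sites on average, against 1.41. Among genes with 1 start site, 8 of 19 motor genes (42.1%) and 28.3% of all genes had a promoter summit. Among genes with several start sites the motor count was 9 of 16 (56.2%), against 47.4% of all genes. Of the motor genes shorter than 5000 bp, 7 of 14 (50%) were bound, against 31.1% of all such genes. Of the longer motor genes, 10 of 21 (47.6%) were bound, against 40% of all such genes. The motor share was the higher in each of these strata, and the shares were closest among the longer genes. The splits by start sites and by length divide the same motor genes, so their results are not independent. No interval was computed for these small groups. Whether length or start sites account for the motor share was not tested.

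The 17 bound members had 20 promoter summits, which ranged from rank 12 to rank 5450 in the IDR list. The paired promoter summits of ncd, of neb and of Klp10A each shared a called peak region, and were counted separately. Relative signal is the peak's signal value divided by the median signal of the 5460 strongest peaks of the same list, and it spanned 0.456 to 61.0 in the IDR list. The strongest promoter summit of each bound motor gene had a median relative signal of 3.14 in that list, against 1.50 over all bound genes. Of the 20 motor summits, 10 (50%) ranked 1092 or better in the IDR list, against 26.3% of all promoter summits.

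**Figure D1:**
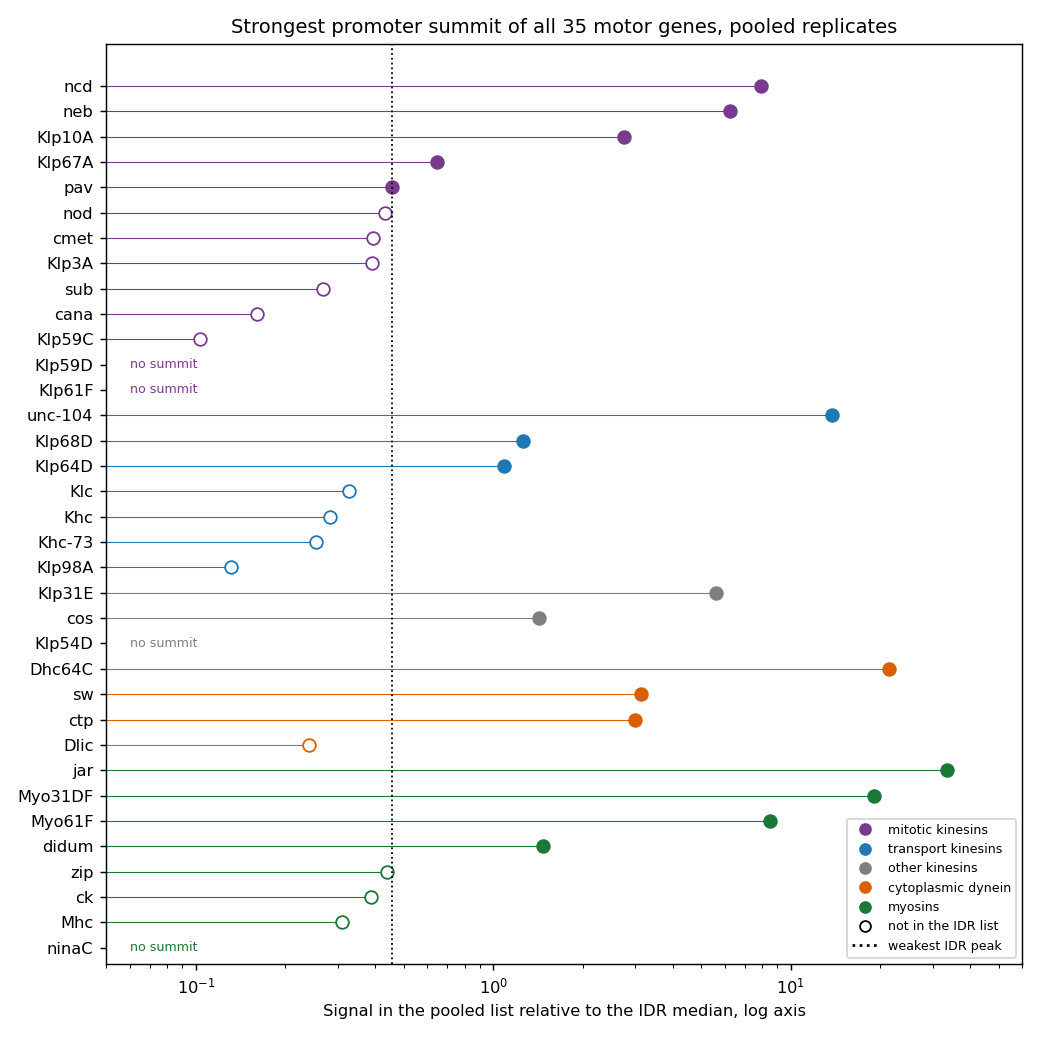
Relative signal (log scale) of the strongest pooled promoter peak of every motor gene, ordered within role, with the weakest IDR peak at 0.456 marked. jar stands highest at 33.4, and several genes without an IDR summit, among them zip at 0.439, lie just under the line.

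The strongest site belonged to jar (myosin VI), a myosin that moves towards the pointed end of actin filaments. Its summit, at position 24271359 of chromosome 3R and 126 bp upstream of the start site, ranked 12 of 5460. Relative signal there was 25.8, 26.6 and 32.7 in replicates 1, 2 and 3 (28.4 ± 3.79, SD, n = 3), and the peak ranked 15, 13 and 11 in these replicates. The lowest jar value exceeded the highest value of any other motor gene.

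The summits that carried CAGCTG within 50 bp are shown first, since this is the sequence AP-4 proteins bind, and 3 strong summits without it follow. Coordinates are on dm6, sequence is from the RefSeq copy of the assembly, written 5′ to 3′ on the strand of the gene, and capitals mark CAGCTG. Where a window overlapped an annotated exon, it was shortened to 30 bases around the site. No sequence is shown for unc-104, and the others with the E-box are the strongest of that kind.
jar promoter, chr3R:24271309-24271389, minus strand: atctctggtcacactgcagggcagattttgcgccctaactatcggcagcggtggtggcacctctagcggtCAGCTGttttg
Dhc64C intron, chr3L:4824683-4824762, minus strand: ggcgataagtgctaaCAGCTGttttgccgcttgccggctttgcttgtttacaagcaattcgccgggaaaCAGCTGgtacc
Myo61F promoter, chr3L:1318378-1318448, plus strand: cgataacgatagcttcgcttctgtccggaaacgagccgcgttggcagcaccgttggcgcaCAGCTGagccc
neb promoter, chr2L:20075427-20075456, plus strand: gttgctcgtcaaCAGCTGctcccgataaca
Klp67A intron, chr3L:9364335-9364364, minus strand: attgggcagcatCAGCTGtttctttccgat
sw promoter, chrX:20236369-20236398, minus strand: tcgctgtcacgaCAGCTGttcacagctatc
neb intron, chr2L:20083123-20083183, plus strand: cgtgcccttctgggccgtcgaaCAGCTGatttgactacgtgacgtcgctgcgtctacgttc
Klp10A promoter, chrX:11137289-11137349, minus strand: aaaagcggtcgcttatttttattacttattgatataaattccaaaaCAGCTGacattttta
Dhc64C promoter without the E-box, chr3L:4825759-4825819, minus strand: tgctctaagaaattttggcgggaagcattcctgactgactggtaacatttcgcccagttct
Myo31DF promoter without the E-box, chr2L:10506905-10506965, minus strand: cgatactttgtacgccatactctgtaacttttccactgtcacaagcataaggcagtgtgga
Klp31E promoter without the E-box, chr2L:10413919-10413979, plus strand: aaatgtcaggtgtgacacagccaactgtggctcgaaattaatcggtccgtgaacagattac
The Dhc64C intron held the E-box at 2 places, and the jar site lay 40 bp from the summit, while those of sw and neb lay under or next to it.

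Of the 20 promoter summits of motor genes, 8 (40%, 95% Wilson interval 21.9 to 61.3%) had CAGCTG within 50 bp, against 30% of all IDR promoter summits. The interval includes the share of all summits. The 8 genes were Klp10A, neb, Klp64D, Klp68D, unc-104, sw, jar and Myo61F, so all 3 bound transport kinesins were among them. Over all IDR promoter summits, those with the E-box were stronger, with a median relative signal of 4.79, against 0.942 for those without it. Among motor summits the medians were 4.69 with the E-box and 4.08 without it, and the ranges overlapped, at 1.09 to 33.4 and 0.457 to 21.4. Dhc64C, Myo31DF and ncd were the strongest motor sites without CAGCTG in the window. In the bases from 250 bp upstream to 50 bp downstream of the start sites, CAGCTG was present for 9 of the 17 bound motor genes (52.9%) and 2 of the 18 unbound ones (11.1%). Over all protein-coding genes these shares were 43.1% of bound and 11.9% of unbound genes. Both unbound carriers were myosins, zip and ninaC.

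Among the mitotic kinesins 5 of 13 (38.5%) had a promoter summit, against 33.3% of all protein-coding genes. The 95% Wilson interval, here 17.7 to 64.5%, included that share in every motor class. The strongest peaks of replicates 1, 2 and 3 gave 4, 6 and 6 mitotic kinesins. The strongest mitotic kinesin summit was at ncd, a minus-end-directed kinesin-14 that draws spindle poles together in meiosis and mitosis. Its summit at position 29806817 of chromosome 3R had relative signals of 6.20, 7.88 and 6.71 in replicates 1, 2 and 3 (6.93 ± 0.858, SD, n = 3). A second ncd summit at position 29807021 had values of 4.90, 4.65 and 4.45 (4.67 ± 0.224). The higher summit exceeded the lower in all 3 replicates. Each summit lay near a different ncd start site, and both lay within 500 bp of the start of ca (claret), an eye colour gene read from the other strand, with the stronger only 6 bp from it.

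neb, a kinesin that associates with chromosomes in mitosis, also had a pair of promoter summits. The one 309 bp upstream, at position 20075448 of chromosome 2L, had relative signals of 6.15 in replicate 1 and 6.05 in replicate 3, with no matching summit in replicate 2. The one 96 bp upstream had 4.92, 5.06 and 4.93 in replicates 1, 2 and 3 (4.97 ± 0.0811, SD, n = 3). The upstream summit lay 10 bp from the start of pr (purple), a gene of eye pigment synthesis that is read away from neb. Klp10A, a kinesin-13 that takes microtubules apart at their ends, had a summit 1 bp upstream of its start, with relative signals of 2.66 in replicate 2 and 2.43 in replicate 3 and no matching summit in replicate 1. Its summit 201 bp upstream, which carried the E-box, had values of 2.08, 1.46 and 1.92 (1.82 ± 0.324).

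The remaining bound mitotic kinesins were weak. Klp67A, a kinesin-8 that limits spindle length, had relative signals of 0.363, 0.502 and 0.452 at its start in replicates 1, 2 and 3, and the peak was among the 5460 strongest in replicates 2 and 3 but not in replicate 1. pav, the kinesin-6 of the cytokinetic midzone, ranked 5450 of 5460, with 0.250 in replicate 1, 0.556 in replicate 3 and no match in replicate 2. In the IDR list Klp67A ranked 4010 at 0.646 and pav stood at 0.457, close to the weakest peak.

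The other 8 mitotic kinesins had no promoter summit in the IDR list. These were Klp3A, a kinesin-4 of the central spindle, Klp59C and Klp59D, of the microtubule-depolymerising kinesin-13 family, Klp61F, the kinesin-5 that slides spindle microtubules apart, nod, a chromokinesin of female meiosis, sub, a kinesin-6 of the meiotic spindle, and the CENP-E-like kinetochore motors cmet and cana. nod was just outside the list, at pooled rank 5703 and a relative signal of 0.434. Its peak was among the 5460 strongest of replicates 1 and 2, at ranks 5004 and 4998, and ranked 8283 in replicate 3. cmet and Klp3A were next, at pooled ranks 6174 and 6182. Klp59D and Klp61F had no promoter summit in any list, relaxed ones included.

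Of the 7 transport kinesins, 3 (42.9%) had a promoter summit, against 33.3% of all protein-coding genes. The counts were 4, 3 and 3 in replicates 1, 2 and 3. unc-104, the kinesin-3 that carries synaptic vesicle precursors along axons, was far the strongest. Its summit lay 4 bp upstream of a start site, at position 16772675 of chromosome 2R, with relative signals of 9.69, 10.3 and 15.0 in replicates 1, 2 and 3 (11.7 ± 2.90, SD, n = 3) and an E-box 11 bp away. The summit was lost when only the start site of the canonical transcript was used; it lies at another annotated start site of the gene.

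The bound pair Klp64D and Klp68D encodes both motor subunits of kinesin-2, the motor of ciliary and some axonal transport. Klp64D had relative signals of 0.410, 0.781 and 1.45 in replicates 1, 2 and 3, and Klp68D had 0.570, 0.926 and 1.48. In both genes the value was lowest in replicate 1 and highest in replicate 3. Their summits lay 43 and 8 bp upstream of the start sites, and each had an E-box. Khc and Klc, the heavy and light chains of conventional kinesin, had pooled peaks at ranks 8123 and 7176, below the IDR list, and neither reached the strongest peaks of a replicate. Khc-73 and Klp98A, kinesin-3 family members, had a promoter summit among the strongest peaks of replicate 1 only.

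The other kinesins were bound at Klp31E and cos but not at Klp54D (2 of 3 genes, against 33.3% of all protein-coding genes). Klp31E had relative signals of 5.0, 3.85 and 7.0 in replicates 1, 2 and 3 (5.28 ± 1.60, SD, n = 3), 68 bp upstream of its start, and the gene CG5355 started 486 bp from the summit. cos (costal 2), a kinesin-like scaffold of Hedgehog signalling, had 0.890, 1.47 and 1.09 (1.15 ± 0.293). Its summit was nearer to the start of the helicase gene Dhx15, 40 bp away, than to that of cos, 169 bp away.

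In cytoplasmic dynein, 3 of the 4 subunit genes in the set (75%) had a promoter summit, against 33.3% of all protein-coding genes. The same number did in each replicate. Dhc64C, which encodes the heavy chain that holds the motor domain, had a summit 102 bp upstream, ranked 70 in the IDR list. Its relative signals were 15.8, 19.9 and 18.5 in replicates 1, 2 and 3 (18.0 ± 2.08, SD, n = 3), and the nearest CAGCTG was 74 bp away. The start of LeuRS-m, a mitochondrial leucyl-tRNA synthetase, lay 64 bp from this summit, nearer than that of Dhc64C.

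sw, the intermediate chain that links dynein to dynactin, had a summit 1 bp from its start on top of an E-box. Relative signal was 1.43, 3.80 and 2.28 in replicates 1, 2 and 3 (2.50 ± 1.20, SD, n = 3). ctp, the LC8 light chain, had values of 2.48, 2.51 and 2.68 (2.56 ± 0.105), 120 bp inside its gene. The 2 means differed by less than the spread of sw, whose replicates ranged on both sides of ctp. Dlic, the light intermediate chain, was below the IDR list, with a pooled relaxed peak at rank 9214 and relaxed peaks at ranks 7808, 7957 and 16102 in replicates 1, 2 and 3.

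Of the 8 myosins, 4 (50%) had a promoter summit, against 33.3% of all protein-coding genes. The counts were 5, 5 and 6 in replicates 1, 2 and 3. Besides jar, the myosins bound in the IDR list were Myo31DF, Myo61F and didum. Myo31DF, a class I myosin that sets left-right asymmetry in the fly, ranked 109, with relative signals of 18.3, 15.4 and 17.1 in replicates 1, 2 and 3 (16.9 ± 1.45, SD, n = 3). Its replicates overlapped those of the Dhc64C promoter, so the order of these genes was not resolved. The start of CG6094 lay 146 bp from the Myo31DF summit. Myo61F, another class I myosin, had 7.30, 5.90 and 8.66 (7.29 ± 1.38), with an E-box and no neighbouring start site in range. Like that of unc-104, the Myo61F summit was lost when only the start site of the canonical transcript was used. The replicates of Myo61F overlapped those of ncd and lay below every unc-104 value.

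didum, the vesicle-carrying myosin V, was weak, with relative signals of 1.04, 1.70 and 0.915 in replicates 1, 2 and 3 (1.22 ± 0.421, SD, n = 3). The start of dpa, an MCM helicase subunit, lay 121 bp from that summit and the start of didum 149 bp. zip, the heavy chain of nonmuscle myosin II, missed the IDR list at pooled rank 5641, yet its peak was among the 5460 strongest of every replicate, at ranks 5322, 4995 and 4949. The relative signal of zip was 0.467, 0.498 and 0.476 in replicates 1, 2 and 3, each scaled by its own list. In the pooled list zip stood at 0.439, just below the 0.456 of the weakest IDR peak. ck (myosin VIIA, needed for hairs and bristles) and Mhc (the heavy chain of muscle myosin) had pooled peaks at ranks 6259 and 7486, and ninaC, a photoreceptor myosin, had no promoter summit in any list.

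**Figure D2:**
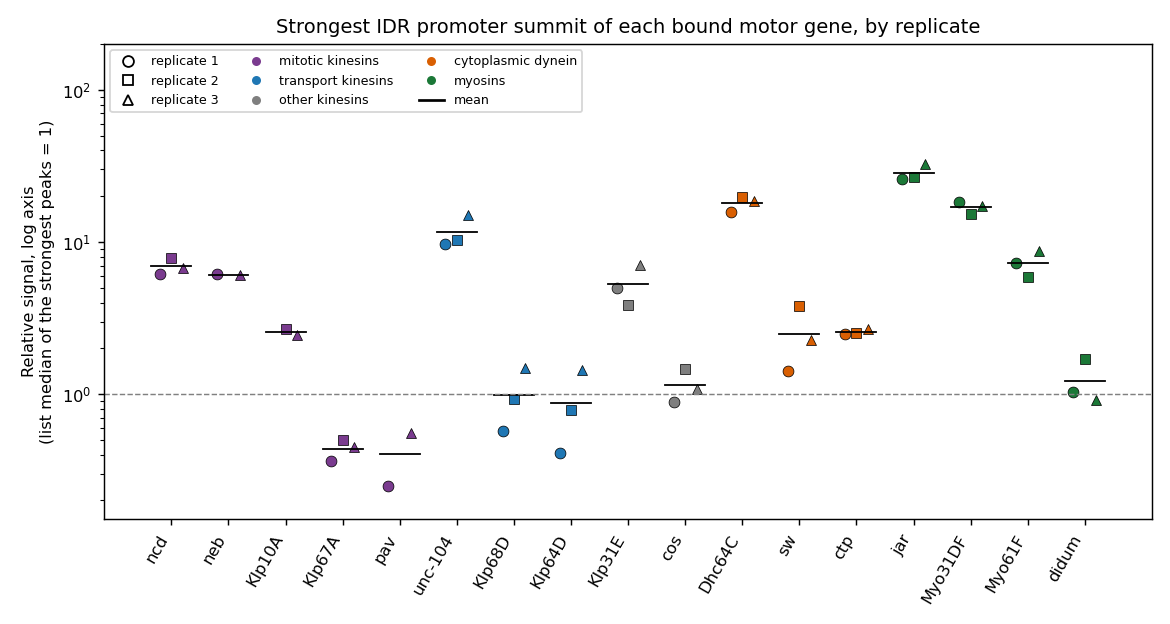
Relative signal (log scale) at the strongest promoter summit of the 17 bound motor genes, 1 point per replicate with the mean as a bar, by role. Points are missing where a replicate had no matching summit; the jar replicates, at 25.8 to 32.7, lie above those of every other gene.

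Across all 35 genes, 14 of the 18 without an IDR promoter summit still had one in the pooled relaxed list, and 7 were among the strongest peaks of at least 1 replicate. These 7 were nod, cmet, sub, Khc-73, Klp98A, zip and Mhc, and zip was the only one found in all 3. Of the 17 bound members, 14 had a promoter summit in the strongest peaks of every replicate. These gene counts are given without the share over all protein-coding genes, so they cannot be read as particular to motor genes. Summit by summit, 15 of 20 (75%, 95% Wilson interval 53.1 to 88.8%) had a match within 100 bp in all 3, against 61.4% of all IDR promoter summits.

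**Figure D3:**
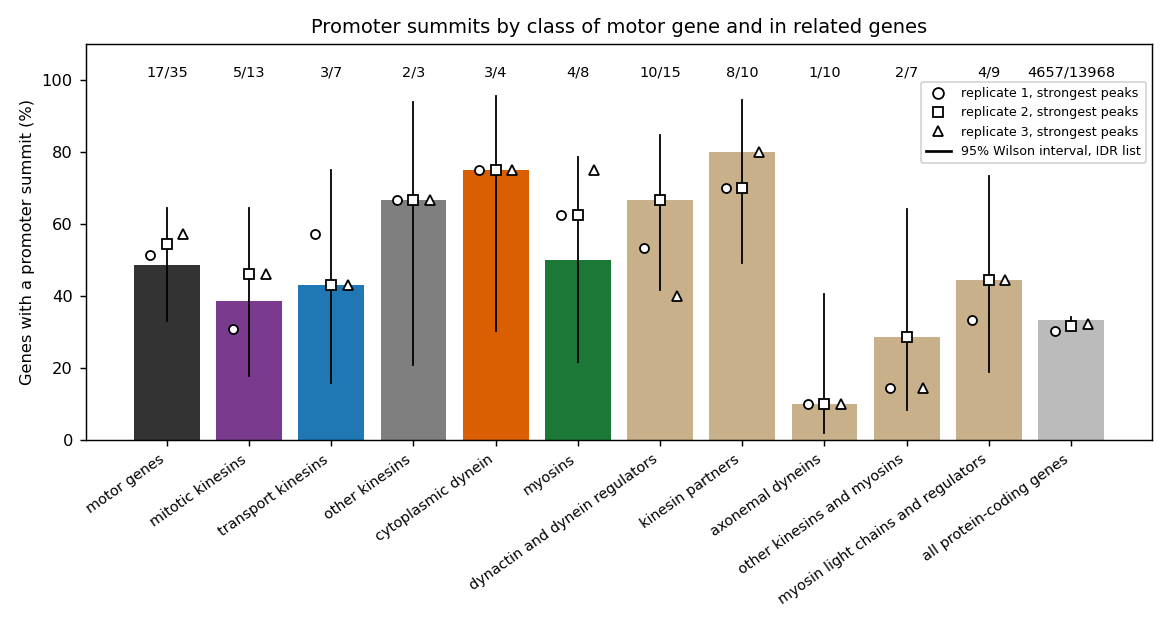
Percent of genes with a promoter summit in the IDR list (bars, with 95% Wilson intervals as lines) and in the strongest peaks of each replicate (points), by motor class, for the companion lists and for all protein-coding genes. Motor genes stood at 48.6% in the IDR list, against 33.3% of all genes; classes hold 3 to 13 genes.

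Some motor summits lay near the start sites of other genes, as did promoter summits in general. Of the 20 promoter summits of motor genes, 10 (50%) lay within 500 bp of start sites of 2 or more genes, against 39.3% of all IDR promoter summits. The 10 include both summits of ncd and both of neb, and no interval was computed. In 6 of the 10 the neighbour's start was the nearer one. This held for ncd with ca, neb with pr, cos with Dhx15, Dhc64C with LeuRS-m, didum with dpa and Myo31DF with CG6094. Together with Klp67A, near CG4452, and Klp31E, near CG5355, 8 motor genes had no promoter summit that was theirs alone. Which gene of such a pair a peak serves cannot be told apart in these data. Most motor summits lay just upstream, 16 of 20 (80%) against 79.2% of all promoter summits, at a median of -69 bp against -49 bp. Of other promoter elements, the letters CGATA were at 9 motor summits (45%), against 30.7% of all promoter summits, and the longer element DRE, which contains them, was at 2 (10%), Klp64D and Klp67A, against 7.82%.

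**Figure D4:**
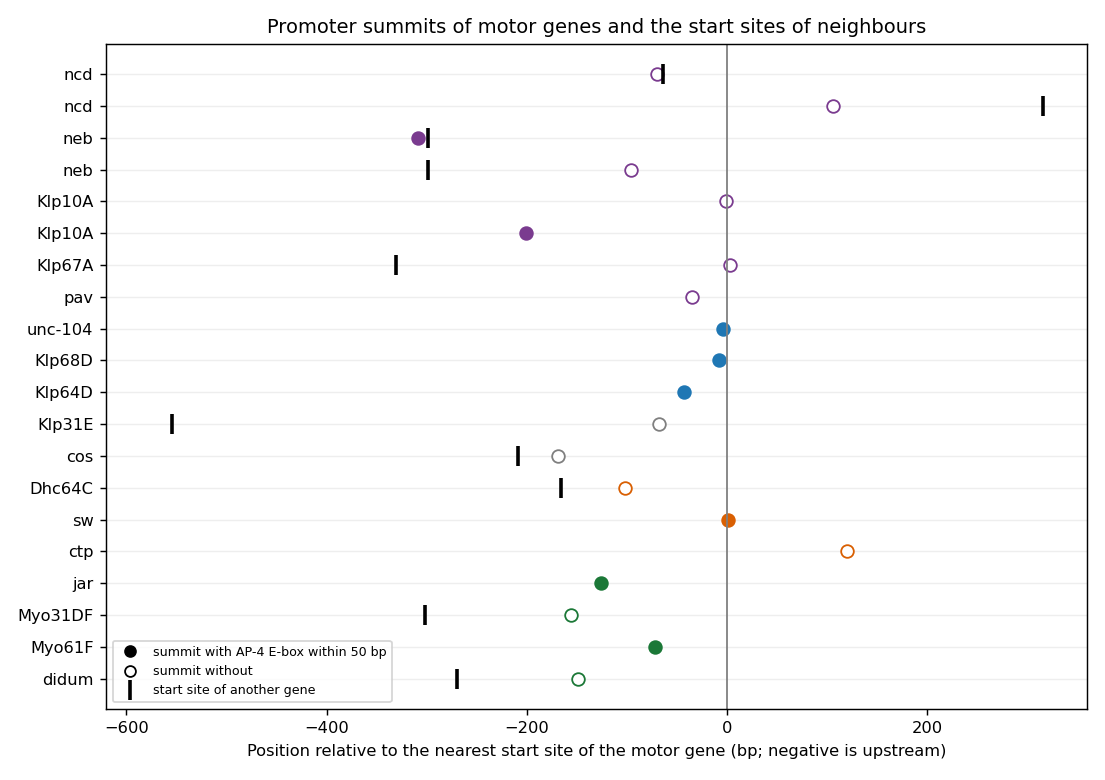
Position of the 20 promoter summits relative to the nearest start site of the motor gene (bp, negative is upstream), with start sites of neighbouring genes as ticks and filled points where the AP-4 E-box lay within 50 bp. Genes with 2 summits take 2 rows, and the ncd rows are set against different ncd start sites; 9 of the 10 summits with a neighbour in range are open points.

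Inside gene bodies, more than 500 bp from the gene's own start sites, 7 of 35 motor genes (20%) had an IDR summit, against 6.43% of all protein-coding genes. The count was 4 of 35 (11.4%) with any 1 replicate left out, against 3.18 to 3.75% of all genes, and 3 of 35 (8.57%) in the stronger 50% of the IDR list, against 2.56% of all genes. The 4 genes, the same whichever replicate was left out, were Dhc64C, neb, Klp67A and jar. Among genes of 5000 bp or more, 6 of 21 motor genes (28.6%) had one, against 21.3% of all such genes. Among shorter genes 1 of 14 motor genes (7.14%) did, against 1.48% of all such genes. Per 100 kb of gene the motor set had 3.16 body summits, against 1.43 over all genes. Dhc64C gave 2 of the motor body summits and neb gave 3. Both of those in Dhc64C lay in the same called peak region as its promoter summit, and were counted separately. All 10 motor body summits were in introns, and 3 had the E-box, while 28.4% of all IDR gene-body summits did.

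The strongest body summit was in Dhc64C, 955 bp into the gene at position 4824732 of chromosome 3L, with 2 E-boxes. Its relative signals were 9.55, 5.24 and 18.5 in replicates 1, 2 and 3 (11.1 ± 6.75, SD, n = 3). A weaker one 755 bp in had 1.73, 2.92 and 1.80 (2.15 ± 0.669). The stronger site thus varied more than the Dhc64C promoter, which it matched in replicate 3 only. Klp67A held a summit 2578 bp in, with 3.26, 1.12 and 5.20 (3.19 ± 2.04), above its own promoter summit in every replicate. That site lay 23 bp from the start of mRRF1, a mitochondrial ribosome recycling factor read from the opposite strand.

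neb had 3 body summits, 7396, 9474 and 10864 bp into the gene. The first carried the E-box and had relative signals of 1.43, 0.629 and 2.76 in replicates 1, 2 and 3, and the second lay 161 bp from the start of fok. The remaining body summits were weak and were single sites in Klp98A, jar, Myo61F and ck, with ranks of 4558, 3201, 4264 and 4634 in the IDR list. The sites in Klp98A, Myo61F and ck were matched among the strongest peaks of replicate 2 alone. Klp98A and ck had no IDR summit at their promoters, so 16 motor genes had neither kind.

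**Figure D5:**
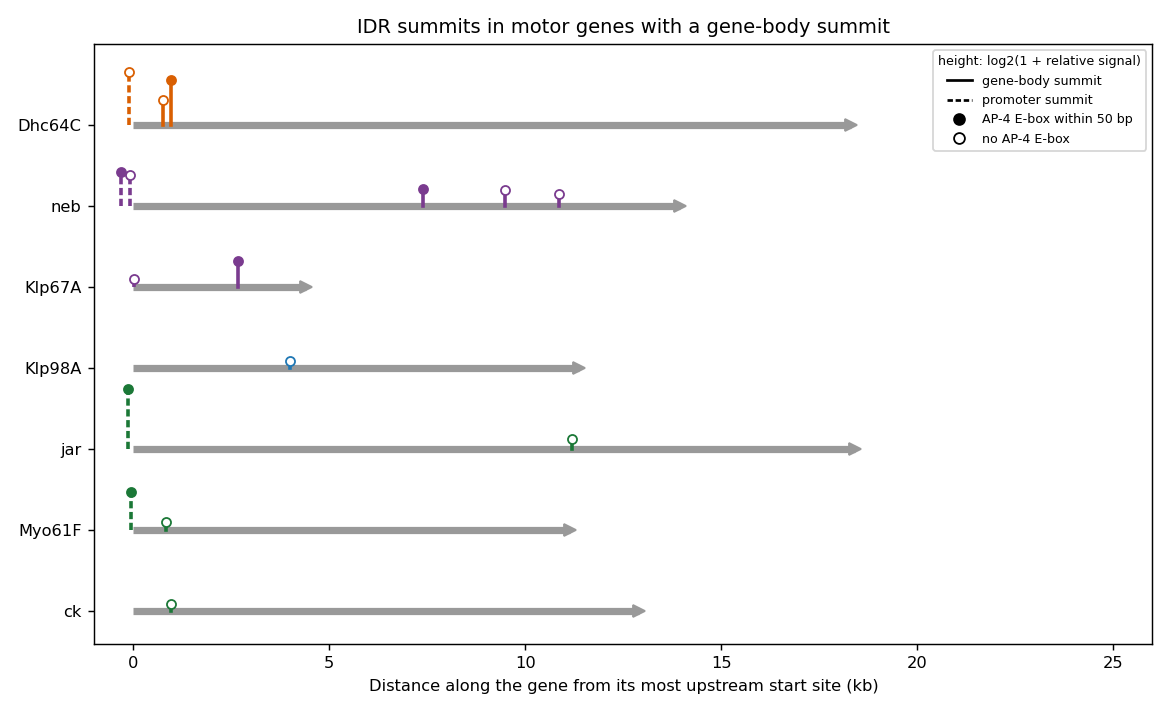
The 7 motor genes with a gene-body summit, drawn to scale in kb from the most upstream start site, with stem height showing log2(1 + relative signal). Dhc64C and neb had 2 and 3 body summits, and the Klp67A body summit stands taller than its promoter summit.

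Genes whose products work with these motors were counted from companion lists. In the list of dynactin and dynein regulators, which also holds the dynein genes robl and Dlc90F, 10 of 15 (66.7%) had a promoter summit. The counts were 8, 10 and 6 in replicates 1, 2 and 3. The strongest was DCTN5-p25, a subunit of the dynactin pointed end, with a mean relative signal of 11.4 ± 2.25 (SD, n = 3) and an E-box. Next were DCTN1-p150, the subunit that grips microtubules, at 5.29 ± 0.688, and DCTN4-p62, also of the pointed end, at 4.30 ± 0.822. The start of CG8833 was also within 500 bp of the DCTN1-p150 summit.

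Of the kinesin partners, 8 of 10 (80%) were bound, with 7, 7 and 8 in replicates 1, 2 and 3. milt, the adaptor that ties kinesin to mitochondria, ranked 8 in the IDR list at 30.4 ± 0.554 (SD, n = 3), and differed from jar by less than the spread of jar. Kap3, the non-motor subunit of kinesin-2, had 5.88 ± 0.139, and syd, a scaffold for axonal cargo, had 4.73 ± 0.687. CG34348 and Srp9 also started within 500 bp of the Kap3 and syd summits. The Kap3 mean was above those of its motor partners Klp64D and Klp68D, whose replicates did not exceed 1.48.

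The remaining lists were dyneins mostly of the axoneme, the beating core of cilia and sperm tails, other kinesins and myosins, and myosin light chains with their regulators. Of the 10 dyneins in that list only Dhc36C had a promoter summit, at 14.3 ± 3.30 (SD, n = 3). It shares that region with mEFTs, a mitochondrial translation factor gene. Of 7 other kinesins and myosins, Myo95E (0.865 ± 0.358) and Mhcl (0.535 ± 0.443) were bound. Of 9 myosin light chains and regulators 4 (44.4%) were bound, led by unc-45, the chaperone that folds myosin, at 19.5 ± 3.21. flw, a catalytic subunit of a phosphatase, and sqh, the regulatory light chain of zip, were weaker. flw had relative signals of 0.210 in replicate 1 and 1.73 in replicate 2 and no matching summit in replicate 3, and sqh averaged 0.820 ± 0.304 (SD, n = 3). The unc-45 summit lay within 500 bp of the start of CG11035 too, the flw summit of that of Psf3, and the Myo95E summit of that of TBC1d7.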

How the data were processed

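ChIP-seq of GFP-tagged crp in whole embryos was represented by peak lists on dm6, without reads, so the depth of each sample is unknown. Per the labels, 3 biological replicates were deposited in 1 group; the replicate lists held 30000, 28713 and 30000 relaxed peaks, the pooled list 28145 and the IDR list 5460. The signal of each peak was deposited by the authors on the scale of their peak caller, and the summit offset in bases from the peak start is another deposited value, of the unit class other. Not given in the sources used here are the aligner, the caller with its settings, and the threshold of the IDR filter. The deposited notes name sources of the IDR list that were not used here.

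Summits were taken as start plus offset and counted from 1. Signal was divided by the median of the list's 5460 strongest peaks, which removes a common scale but not a change of rank order. Genes and start sites came from Ensembl release 115. Bases were read from the dm6 assembly as RefSeq distributes it. A promoter summit lay within 500 bp of a start site, a gene-body summit inside the gene and farther away, a match within 100 bp and an E-box within 50 bp. The name d in a companion list matched no single gene and was left out. The motor genes, classes and lists were chosen with earlier results of these data known, so counts carry no test. All 35 genes are accounted for. Replicate values were to be given for the 12 with the strongest summits and the strongest of each class, and for up to 3 genes per companion list. The other bound genes were added. Alternatives changed the windows, the start sites, the list, the scaling and the replicates. The scoring was tested on simulated data. Python 3.11.15, numpy 2.4.6, scipy 1.17.1 and matplotlib 3.10.9 were used.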

Additional observations from a re-analysis of the deposited data

How the results depend on the processing

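The 17 motor genes with a promoter summit became 17 with a 250 bp window (all genes 29.0%), 18 with 1000 bp (36.2%), 15 in the stronger 50% of the IDR list (21.1%), 15 with canonical start sites (30.5%) and 14 to 17 when each replicate was left out (24.9 to 25.8%). The mitotic kinesins with a promoter summit numbered 3 instead of 5 in the stronger 50% and 3 to 4 with a replicate left out. Genes with a body summit numbered 3 instead of 7 in the stronger 50% and 4 with any replicate left out. Leaving out summits near any gene's start gave 6 of 35 (17.1%), without Klp67A, against 5.18% of all genes. Without a replicate, the counts used summits shared by the strongest peaks of the other replicates, a shorter list than the IDR list. The median over bound motor genes of the mean relative signal, 2.56, depends on its divisor by construction, at 18.1 with the median of all relaxed peaks and 0.300 with that of the 1000 strongest. The share of summits matched in all remaining replicates was 75 to 90%, highest without replicate 1. The E-box share was 25% within 25 bp and 50% within 100 bp, beside 17.6% and 39.9% of all promoter summits. Within 50 bp it was 36.8%, 31.6% and 33.3% with replicate 1, 2 or 3 left out. It was 44.4% in the stronger 50% of the IDR list. For these shorter lists the share of all promoter summits was not counted; in the full IDR list it was 30%. jar stayed first under every scaling and replicate left out, and Myo31DF came before Dhc64C only without replicate 2. No paired analysis was possible because the replicates form a single group. Depth is unknown, so absence from the IDR list does not show absence of binding.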

Other observations

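Motor promoter summits with a neighbour in range seldom carried the E-box. Of the 10 summits near the start site of the motor gene alone, 7 (70.0%) had CAGCTG within 50 bp, and of the 10 near start sites of several genes, 1 (10.0%) did. Over all IDR promoter summits the shares were 34.1% and 23.6%. In the strongest peaks of replicates 1, 2 and 3, 6 of 14, 7 of 12 and 8 of 15 motor summits near 1 gene had it, against 1 of 14, 0 of 9 and 1 of 12 near several genes. The replicate lists overlap the IDR list, this split was chosen after the values were seen, and it was not tested.

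The bases beside the E-box leaned the same way in motor summits as in all IDR summits, relative to all genomic sites. Before CAGCTG, read from both ends of each site, A stood at 13 of 24 positions in motor summits of promoters and gene bodies (54.2%), at 43.9% in all IDR summits and at 20.2% in all CAGCTG sites of the 7 chromosome arms. The pair AA preceded the motor sites at 10 of 24 ends (41.7%), against 31.2% in all IDR summits and 7.25% in all genomic sites. G or C preceded 3 of 24 motor ends (12.5%), against 21.3% in all IDR summits and 58.4% in all genomic sites. The 24 ends come from 12 sites, so the motor shares are imprecise.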
